A study of Mus musculus with 9 samples.

Results

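The genes described here are 8 that build triglyceride, the storage fat of adipocytes, or make the glycerol 3-phosphate on which it is built. They are *Gpam*, *Gpat3*, *Agpat2*, *Lpin1*, *Dgat1*, *Dgat2*, *Pck1* and *Gpd1*, found by their symbols in a table of 56748 genes. All 8 had at least 0.5 CPM (counts scaled to the library total) in at least 1 library and so belonged to the 18510 genes tested. The CPM values printed below were further scaled with TMM factors, which adjust each library total. RNA of epididymal adipose tissue, the visceral fat pad beside the epididymis, was sequenced from wild-type (WT) male C57BL/6J mice that had eaten a high-fat diet (HFD) for 8 weeks from 8 weeks of age (Pre), and from mice that then ate standard diet (SD) for 1 week (WL1) or 2 weeks (WL2), with 3 libraries per phase. Every phase therefore carried the same 8 weeks of HFD, and the switch of diet, the loss of weight, and the added age cannot be told apart in these libraries. The labels do not say that the libraries of a phase came from separate mice, so p-values measure only the spread between these libraries, which may be technical.

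In the pathway, a first fatty acid is joined to glycerol 3-phosphate, a second is added to give phosphatidate, the phosphate is removed, and a last fatty acid is attached to give triglyceride. White adipocytes have little glycerol kinase activity, so they draw glycerol 3-phosphate from glucose or from pyruvate and related precursors. The second source is used through *Pck1*, the route called glyceroneogenesis, and both routes end at the step of *Gpd1*. Insulin and dietary sugar favour the first source, and fasting favours the second, in which part of the fatty acid freed by lipolysis is stored again.

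The libraries held 16434450 to 22729072 counts on genes, and the fewest counts of any of the 8 genes in any library were 419, so counting error was small beside the spread between libraries. Libraries of 1 phase differed by more than counting noise. The markers of adipocytes were abundant in every library. Their summed level over 10 genes was 28434 to 35841 CPM at Pre, 19524 to 26000 CPM at WL1, and 29282 to 32023 CPM at WL2. The sum over 10 macrophage markers was 1628 to 2980 CPM at Pre, 4192 to 8747 CPM at WL1, and 1956 to 4592 CPM at WL2. At WL1 against Pre, 4 of the 10 adipocyte markers fell and 2 of the 10 macrophage markers rose (edgeR, adjusted p below 0.05), where 4.69% of all tested genes fell and 2.60% rose. At WL2 against Pre 2 adipocyte markers rose and 2 fell (3.35% and 6.66% of all). At WL2 against WL1 3 rose and 1 fell (1.31% and 2.37%). The median log2 fold changes in these 3 comparisons were −0.56, −0.09 and 0.46 for adipocyte markers. For macrophage markers they were 0.78, 0.08 and −0.98. WL1 replicate 3 had both the lowest adipocyte and the highest macrophage sum. In bulk tissue, fewer cells of a type and less RNA per cell cannot be told apart.

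After 1 week of SD several of the genes fell, and after 2 weeks some were lower and *Pck1* was higher than at Pre. At WL1 against Pre, 5 of the 8 genes fell (*Gpam*, *Gpat3*, *Agpat2*, *Dgat2* and *Gpd1*) and 0 rose, where 4.69% of all tested genes fell and 2.60% rose. Without Pre replicate 1 or WL1 replicate 3, the count that fell was 3 of the 8. The calls over all tested genes, in either direction, also went down in these fits, from 1350 to 562 and 512. A call means an adjusted p below 0.05 (edgeR's quasi-likelihood test, adjusted over all 18510 genes by Benjamini-Hochberg). The 8 genes were chosen with earlier results of these data known, so the shares of all tested genes do not test the set. The gene *Pck1* was higher at WL1 with an unadjusted p below 0.05, and DESeq2 called 0 higher. At WL2 against Pre, 3 fell (*Agpat2*, *Dgat2* and *Gpd1*) and 1 rose (*Pck1*), where 6.66% of all tested genes fell and 3.35% rose. At WL2 against WL1, 1 fell (*Dgat2*) and 0 rose, where 2.37% of all tested genes fell and 1.31% rose. At that last step, 4 of the 8 genes had an unadjusted p below 0.05 in the same edgeR test, and DESeq2 called 2 genes higher (*Gpam* and *Lpin1*) and 2 lower (*Dgat2* and *Gpd1*). Over all 18510 genes, DESeq2 called 1935 there in either direction, against 681 with edgeR. The share of all genes at an unadjusted p below 0.05 was not counted.

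Each of the 8 is protein coding, and its position is given for the whole gene. In the deposited coordinates 4 of the 8 overlap 6 other genes, of which *Egfl7*, described with *Agpat2*, had many counts and the others at most 58 in any library.

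The median log2 fold change of the 8 genes was −0.84 at WL1 against Pre, −0.41 at WL2 against Pre and 0.28 at WL2 against WL1, where the medians of all tested genes were 0.021, 0.0084 and −0.0014. The 3 libraries of each phase did not overlap for 6 of the 8 genes at WL1 against Pre, against 28.7% of all tested genes, in either direction. They did not overlap for 5 of the 8 at WL2 against Pre, against 30.9%, and for 5 of the 8 at WL2 against WL1, against 30.3%. When a difference of any kind among the 3 phases was tested, 4 of the 8 genes passed (*Gpam*, *Agpat2*, *Dgat2* and *Gpd1*), where 13.1% of all tested genes did. The comparisons share libraries with each other, so their values are given side by side and are not independent.

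**Figure D1:**
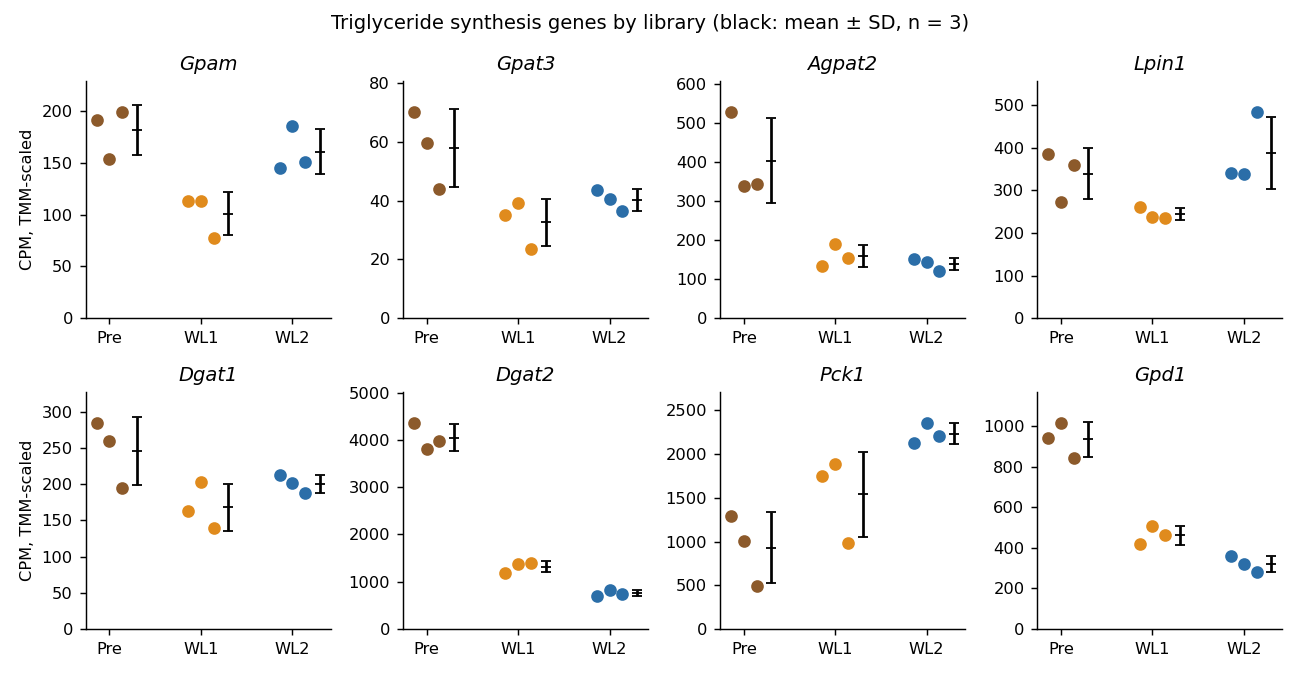
CPM (counts scaled to the library total adjusted by TMM factors) of each of the 8 genes in the 9 libraries, 1 panel per gene with its own vertical axis starting at 0. Points are libraries and bars show the mean ± SD of the 3 libraries at Pre, WL1 and WL2. *Dgat2* and *Gpd1* step down from Pre to WL1 and again to WL2 without overlap between phases, *Gpam* is lowest at WL1, and *Pck1* is highest at WL2.

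*Gpam* and *Gpat3* encode acyltransferases for the first step, *Gpam* the enzyme of the mitochondrial outer membrane and *Gpat3* that of the endoplasmic reticulum. *Gpam* (ENSMUSG00000024978) lies on chromosome 19, 55055700 to 55115670, on the minus strand, in the coordinates of the deposited table. Its level was 191, 154 and 199 CPM in the Pre libraries, 113, 113 and 77.1 CPM at WL1, and 145, 186 and 151 CPM at WL2. Every WL1 library lay below every Pre and every WL2 library, and Pre and WL2 overlapped. *Gpam* fell by 0.84 on the log2 scale at WL1 against Pre (SE 0.17, edgeR, adjusted p = 0.0182), from 181 ± 24.2 to 101 ± 20.7 CPM (SD, n = 3). The call was lost without Pre replicate 1 (adjusted p = 0.0595 in edgeR) or WL1 replicate 3 (0.0554). At WL2, with 161 ± 21.9 CPM (SD, n = 3), *Gpam* differed from Pre by −0.17 (SE 0.17, edgeR, adjusted p = 0.556) and from WL1 by 0.67 (SE 0.17, edgeR, adjusted p = 0.0590). The latter was past the threshold without Pre replicate 2 or WL2 replicate 1.

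*Gpat3* (ENSMUSG00000029314, chromosome 5, 100993579 to 101046968, plus strand) was the gene of the set with the lowest level. It measured 70.1, 59.7 and 43.9 CPM at Pre, 35.2, 39.1 and 23.6 CPM at WL1, and 43.7, 40.6 and 36.4 CPM at WL2. The lowest Pre library stood just above the highest WL2 library, while WL1 and WL2 overlapped. *Gpat3* fell by 0.83 at WL1 against Pre (SE 0.21, edgeR, adjusted p = 0.0399). This call lay near the threshold. It was lost without any 1 of 7 of the 9 libraries, all but Pre replicate 3 and WL2 replicate 1. The adjusted p in these fits was up to 0.123 in edgeR. Library totals in place of TMM factors, or the compared phases alone, also lost the call. Without WL2 replicate 2 or 3, which are outside the comparison, the log2 fold change stayed at −0.83 (adjusted p = 0.0630 and 0.0568 in edgeR). At WL2 against Pre the log2 fold change was −0.52 (SE 0.21, edgeR, adjusted p = 0.138). The log2 ratio of *Gpam* to *Gpat3* counts was 1.66 ± 0.45 at Pre, 1.64 ± 0.095 at WL1, then 1.99 ± 0.24 in the WL2 libraries (SD, n = 3). It differed by −0.02 at WL1 against Pre (exact permutation p = 1) and by 0.33 at WL2 against Pre (exact permutation p = 0.3), with overlapping libraries in both. At WL2 against WL1 it differed by 0.35 without overlap (exact permutation p = 0.1, the smallest possible, and 0.129 adjusted).

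*Agpat2* encodes the main acyltransferase of the next step in adipocytes, and its loss causes generalized lipodystrophy in people and mice. The gene (ENSMUSG00000026922, chromosome 2, 26483069 to 26494429, minus strand) measured 527, 338 and 344 CPM at Pre, 133, 189 and 155 CPM at WL1, and 151, 144 and 121 CPM at WL2. Every library at WL1 and WL2 lay below the lowest Pre library. *Agpat2* fell by 1.34 at WL1 against Pre (SE 0.20, edgeR, adjusted p = 0.00399) and by 1.54 at WL2 against Pre (SE 0.20, edgeR, adjusted p = 0.000956). From WL1 to WL2 it differed by −0.20 (SE 0.19, edgeR, adjusted p = 0.616), with overlapping libraries. *Egfl7*, a vascular gene on the opposite strand with up to 3583 counts in a library, shares 64 exonic bases with *Agpat2* (3.00% of its 2130 exonic bases in GENCODE M21), and whether the counting used strand is unknown. The log2 fold change of *Egfl7* was −0.22 at WL1 (edgeR, adjusted p = 0.703) and −0.06 at WL2 against Pre (edgeR, adjusted p = 0.915).

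*Lpin1* encodes lipin 1, which removes the phosphate from phosphatidate and also acts as a transcriptional coactivator. The gene (ENSMUSG00000020593, chromosome 12, 16585670 to 16696967, minus strand) measured 385, 271 and 360 CPM at Pre, 260, 237 and 234 CPM at WL1, and 340, 338 and 483 CPM at WL2. The WL1 libraries were below those of both other phases, and Pre and WL2 overlapped. None of the 3 comparisons passed the test. The log2 fold change was −0.48 at WL1 against Pre (SE 0.17, edgeR, adjusted p = 0.124), 0.19 at WL2 against Pre (SE 0.17, edgeR, adjusted p = 0.508) and 0.67 at WL2 against WL1 (SE 0.17, edgeR, adjusted p = 0.0591). The last was past the threshold without Pre replicate 2, without WL2 replicate 1, without the low-count filter, with library totals, with the compared phases alone and in DESeq2.

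The last step is carried out by *Dgat1*, the broader enzyme of the endoplasmic reticulum, and by *Dgat2*, which works at the endoplasmic reticulum and on lipid droplets and is linked to newly made fatty acid. *Dgat2* (ENSMUSG00000030747, chromosome 7, 98802865 to 98831926, minus strand) gave the largest fall of the 8 genes in each comparison. It measured 4362, 3800 and 3981 CPM at Pre, 1180, 1367 and 1404 CPM at WL1, and 703, 829 and 742 CPM at WL2. The 3 phases were fully separated. *Dgat2* fell by 1.62 at WL1 against Pre (SE 0.12, edgeR, adjusted p = 0.000262), a 3.07-fold lower level. It fell by 2.42 at WL2 against Pre (SE 0.13, edgeR, adjusted p = 1.25e-05), a 5.34-fold lower level. In order of p over 18510 genes it stood at rank 5 in the first comparison and rank 2 in the second. The further fall from WL1 to WL2 was 0.80 (SE 0.12, edgeR, adjusted p = 0.0110) and was lost without WL2 replicate 2 (adjusted p = 0.0531 in edgeR) or WL2 replicate 3 (0.0593). *Dgat2* alone took 0.359% to 0.407% of all counts at Pre and 0.0721% to 0.0882% at WL2.

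*Dgat1* (ENSMUSG00000022555, chromosome 15, 76386215 to 76396153, minus strand) passed the test in none of the 3 comparisons. It measured 285, 259 and 194 CPM at Pre, 163, 203 and 139 CPM at WL1, and 213, 201 and 187 CPM at WL2, with overlap between all phases. Its log2 fold change was −0.55 at WL1 against Pre (SE 0.17, edgeR, adjusted p = 0.0800), −0.30 at WL2 against Pre (SE 0.17, edgeR, adjusted p = 0.299) and 0.25 at WL2 against WL1 (SE 0.17, edgeR, adjusted p = 0.446). The first was past the threshold without Pre replicate 3, without the low-count filter and in DESeq2. Within a library, the log2 ratio of *Dgat2* to *Dgat1* counts does not depend on scaling. It was 4.06 ± 0.26 at Pre, 2.98 ± 0.31 at WL1, then 1.92 ± 0.17 in the WL2 libraries (SD, n = 3), with no overlap. The differences of −1.07, −2.14 and −1.06 (WL1 against Pre, WL2 against Pre, WL2 against WL1) each gave a two-sided exact permutation p of 0.1, the smallest that 3 libraries against 3 allow, and 0.129 adjusted over 9 such ratio tests. Per length, in FPKM (fragments scaled by gene length and by a total for each library), *Dgat2* exceeded *Dgat1* by 14.5 to 20.3 times at Pre and by 3.27 to 4.08 times at WL2.

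*Gpd1* encodes the cytosolic glycerol 3-phosphate dehydrogenase that turns the glycolytic intermediate dihydroxyacetone phosphate into glycerol 3-phosphate. The gene (ENSMUSG00000023019, chromosome 15, 99615396 to 99622886, plus strand) measured 939, 1016 and 844 CPM at Pre, 416, 507 and 460 CPM at WL1, and 362, 321 and 281 CPM at WL2. The 3 phases did not overlap. *Gpd1* fell by 1.02 at WL1 against Pre (SE 0.13, edgeR, adjusted p = 0.00207) and by 1.54 at WL2 against Pre (SE 0.13, edgeR, adjusted p = 9.35e-05). Its level was thus 2.02-fold and then 2.91-fold lower. The difference from WL1 to WL2 was −0.52 (SE 0.13, edgeR, adjusted p = 0.0566) and was past the threshold without Pre replicate 2 or WL2 replicate 1.

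*Pck1*, the cytosolic phosphoenolpyruvate carboxykinase and the key enzyme of glyceroneogenesis, went the other way. The gene (ENSMUSG00000027513, chromosome 2, 172994841 to 173001066, plus strand) measured 1291, 1011 and 488 CPM at Pre, 1750, 1890 and 981 CPM at WL1, and 2125, 2361 and 2211 CPM at WL2. Every WL2 library lay above every other library, while Pre and WL1 overlapped. *Pck1* rose by 1.26 at WL2 against Pre (SE 0.33, edgeR, adjusted p = 0.0367), a 2.40-fold higher level. The call was lost without Pre replicate 2, Pre replicate 3 or any 1 of the WL2 libraries, with log2 fold changes of 0.95 to 1.33 and adjusted p between 0.0544 and 0.112 in edgeR. The log2 fold change was 0.73 at WL1 against Pre (SE 0.32, edgeR, adjusted p = 0.199) and 0.54 at WL2 against WL1 (SE 0.32, edgeR, adjusted p = 0.385). In the test of any difference among the 3 phases, *Pck1* did not pass (edgeR, adjusted p = 0.0621). The spread was wide at Pre (930.5 ± 408 CPM, SD, n = 3) and narrow at WL2 (2232 ± 119 CPM).

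Liver also expresses *Pck1*, so hepatocyte markers are given beside it, and their part in the *Pck1* values was not tested. The sum over 6 of them was 8.08, 48.2 and 84.8 CPM at Pre, 76.8, 1.97 and 7.14 CPM at WL1, and 3.50, 4.48 and 6.60 CPM at WL2. The highest sum was that of Pre replicate 3. *Fgb*, 1 of the 6 markers, had 0 counts in all 3 WL2 libraries. *Ucp1*, the defining gene of brown adipocytes, had at most 5 counts in any library.

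The log2 ratio of *Pck1* to *Gpd1* counts was −0.11 ± 0.63 at Pre, 1.69 ± 0.52 at WL1, then 2.80 ± 0.22 in the WL2 libraries (SD, n = 3), without overlap. The differences were 1.80 at WL1 against Pre, 2.92 at WL2 against Pre and 1.12 at WL2 against WL1, folds of 3.48, 7.55 and 2.17. Each gave an exact permutation p of 0.1, the smallest possible (0.129 adjusted). *Gpd1* acts in both routes to glycerol 3-phosphate, so the ratio does not compare the routes.

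**Figure D2:**
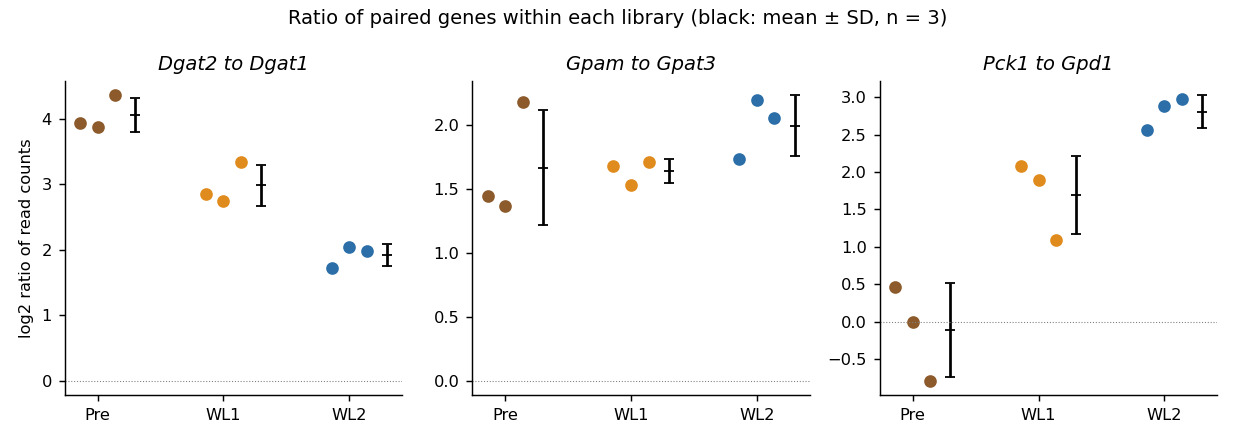
Log2 ratio of counts within a library for 3 pairs of genes (*Dgat2* to *Dgat1*, *Gpam* to *Gpat3*, *Pck1* to *Gpd1*) at Pre, WL1 and WL2. Points are libraries and bars show mean ± SD (n = 3). The first ratio goes down from 4.06 to 1.92 and the last goes up from −0.11 to 2.80, with no overlap between phases.

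**Figure D3:**
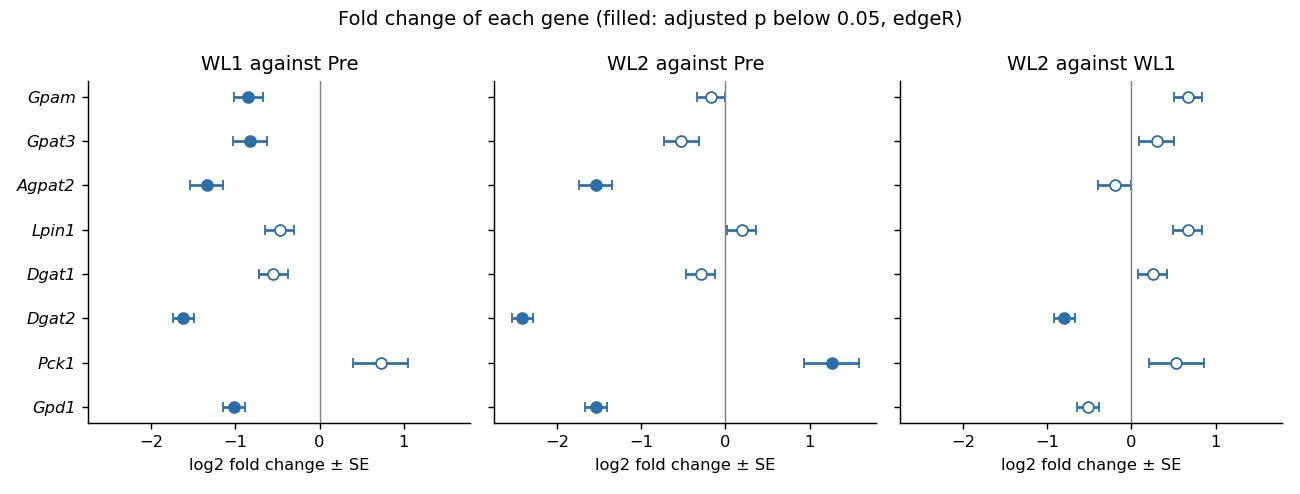
Log2 fold change of the 8 genes from edgeR at WL1 against Pre, WL2 against Pre and WL2 against WL1, with bars of ± SE. Filled points have an adjusted p below 0.05. *Dgat2* lies farthest to the left at −1.62, −2.42 and −0.80, and *Pck1* is the only filled point to the right, at 1.26.

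The sequences upstream of *Pck1*, the gene that rose, and of *Agpat2*, a gene that fell, are shown as examples of the regions that precede these start sites. RefSeq promoter entries on GRCm38.p6 matched 5 of the 8 genes. *Dgat1*, *Dgat2* and *Gpd1* were not matched. The 250 bases before the start site are given 5′ to 3′ in the direction of transcription, for *Pck1* from the plus strand at chr2:173152823-173153072 and for *Agpat2* from the minus strand at chr2:26604418-26604667. Capitals mark ACGTCA, the reverse complement of TGACGT, the core of the cyclic AMP response element, which begins at position −91 of *Pck1*, counted back from the start site.
Pck1: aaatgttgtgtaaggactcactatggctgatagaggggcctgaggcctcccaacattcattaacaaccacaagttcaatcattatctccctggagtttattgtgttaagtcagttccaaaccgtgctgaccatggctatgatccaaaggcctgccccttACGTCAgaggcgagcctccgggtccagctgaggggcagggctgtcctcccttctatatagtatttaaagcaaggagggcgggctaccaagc
Agpat2: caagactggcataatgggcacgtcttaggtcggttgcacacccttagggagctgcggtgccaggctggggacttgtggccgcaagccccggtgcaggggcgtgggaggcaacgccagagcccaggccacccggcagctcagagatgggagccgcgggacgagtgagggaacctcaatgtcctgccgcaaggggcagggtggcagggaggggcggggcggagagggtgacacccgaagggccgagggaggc
The core occurred on either strand in 7.51% of the 32851 promoter entries, each with 250 bases before the start site and 50 after. TATAAA (13.6% of entries), CCAAT (37.4%), CACGTG (7.15%) and a direct repeat of AGGTCA with 1 base between (0.0396%) were also searched on both strands. Of the 6 matched entries, those of *Gpat3* (position −153) and 1 of the 2 of *Gpam* (position −32) also held the core, and the other *Gpam* entry held CCAAT. The start sites of these entries lay inside the RefSeq gene. The distance from its edge was 564 bases for *Gpat3*, 27842 for the *Gpam* entry with the core and 81 for the other. The *Agpat2* window held none of the 5 motifs and *Pck1* held the core alone. The GC content of the window was 50.8% for *Pck1* and 69.2% for *Agpat2*. A match of letters describes the sequence only.

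Compared per length, *Dgat2* was the most abundant RNA of the set at Pre, with a mean of 1232 FPKM, before *Gpd1* with 296 FPKM, *Pck1* with 255 FPKM, *Agpat2* with 178 FPKM, *Dgat1* with 75.6 FPKM, *Lpin1* with 32.0 FPKM, *Gpam* with 25.5 FPKM and *Gpat3* with 15.5 FPKM. The libraries of *Gpd1* and *Pck1*, of *Pck1* and *Agpat2*, and of *Lpin1* and *Gpam* overlapped. At WL2 the order began with *Pck1* at 611 FPKM, followed by *Dgat2* at 231 FPKM and *Gpd1* at 102 FPKM, with no overlap between these. *Dgat1* (61.5 FPKM) and *Agpat2* (60.9 FPKM) overlapped there, and *Gpat3* was again last at 10.8 FPKM. *Pck1* exceeded *Dgat2* in FPKM in 0 of 3 libraries at Pre, 2 of 3 at WL1 and 3 of 3 at WL2. Of the summed CPM of the 8 genes, *Dgat2* made up 54.2% to 61.7% at Pre and 17.2% to 18.8% at WL2, and *Pck1* 7.57% to 16.04% and 52.1% to 53.4%.

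Adipocyte markers also differed between the phases, so the same values were read against them. The 8 adipocyte markers used were *Adipoq*, *Plin1*, *Cidec*, *Fabp4*, *Lipe*, *Cfd*, *Slc2a4* and *Adrb3*, the 10 without *Lep* and *Retn*. Their mean log2 CPM differed by −0.51 at WL1 against Pre (2 of 8 past the test), by 0.27 at WL2 against Pre (3 of 8) and by 0.78 at WL2 against WL1 (2 of 8). The last pair of differences leaned on *Cfd* and *Adrb3*. Without these 2 genes, the mean differed by −0.49, −0.08 and 0.41 in the same order, and over all 10 markers it differed by −0.68, −0.02 and 0.66. After subtracting the mean of the 8 markers in each library, the log2 difference at WL1 against Pre was −0.35 for *Gpam*, −0.32 for *Gpat3*, −0.82 for *Agpat2*, −1.11 for *Dgat2* and −0.51 for *Gpd1*. *Lpin1* and *Dgat1* were at 0.05 and −0.04, with a sign that changed with the markers chosen, and *Pck1* stood at 1.29. The *Pck1* libraries, which overlapped between Pre and WL1 in CPM, did not overlap on this scale, with −0.57 to 0.36 at Pre and 1.07 to 1.43 at WL1 around the Pre mean. The reverse held for *Gpd1* and *Lpin1*, which were separated in CPM and overlapped on this scale. *Gpd1* lay at −0.22 to 0.11 at Pre and −0.75 to −0.13 at WL1, and *Lpin1* at −0.32 to 0.35 and −0.27 to 0.36.

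At WL2 against Pre, *Dgat2* differed by −2.69 relative to the 8 markers and by −2.34 without *Cfd* and *Adrb3*. For *Gpd1* these values were −1.81 and −1.46, for *Agpat2* −1.78 and −1.44, and for *Pck1* 1.10 and 1.45. At WL2 against WL1, the direction of *Gpam*, *Lpin1* and *Pck1* relative to the markers depended on the markers. They differed by −0.09, −0.13 and −0.19 from the 8, and by 0.27, 0.23 and 0.18 without *Cfd* and *Adrb3*. WL1 replicate 3, with the lowest marker level, also had the lowest *Gpam*, *Gpat3*, *Lpin1*, *Dgat1* and *Pck1* of the WL1 libraries but the highest *Dgat2*. The part of cell content in these differences was not tested.

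**Figure D4:**
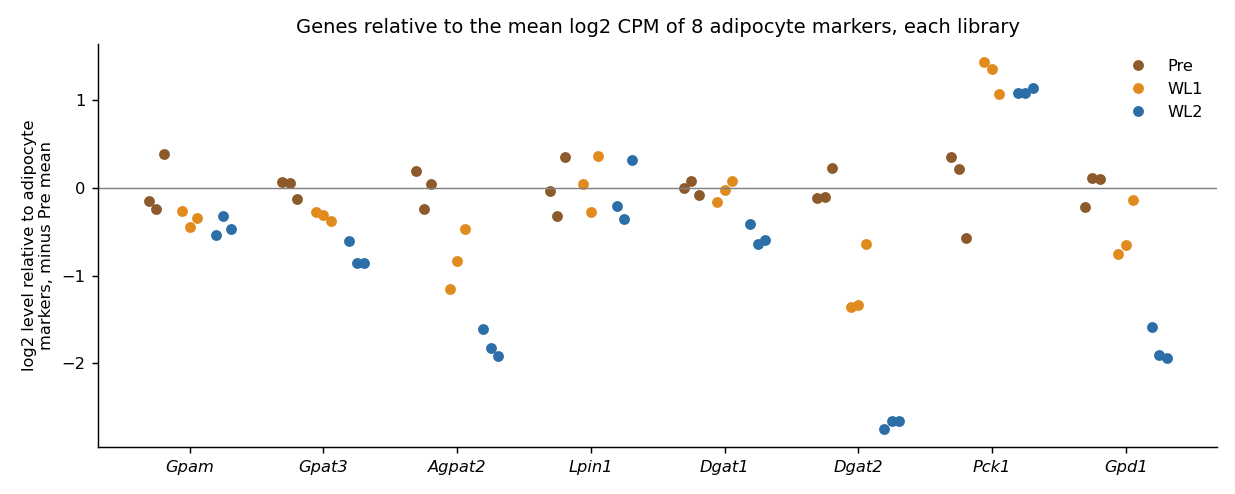
Log2 CPM of each of the 8 genes after subtracting the mean log2 CPM of 8 adipocyte markers in the same library, minus the mean of the Pre libraries (vertical axis). Points are single libraries at Pre, WL1 and WL2. The *Dgat2* libraries at WL2 lie between −2.75 and −2.66, and those of *Pck1* at WL1 and WL2 lie between 1.07 and 1.43, above the Pre libraries.

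Other enzymes of the pathway were read from lists written from general knowledge, but with earlier results of these data known. The shares of all tested genes are therefore given as background and do not test the lists. Of 29 tested genes that encode other isoforms, supply substrate or activate fatty acid, 8 fell and 0 rose at WL1 against Pre, 9 fell and 1 rose at WL2 against Pre, and 1 fell and 1 rose at WL2 against WL1. The shares over all tested genes were 4.69% fallen and 2.60% risen, 6.66% and 3.35%, and 2.37% and 1.31% in these comparisons, and at WL2 against WL1 the list stood near them. The same shares apply to the lists below. At WL1 against Pre, 2 of the 29 were higher with an unadjusted p below 0.05 in edgeR, and DESeq2 called 2 higher. DESeq2 called 2344 of all 18510 genes in that comparison, in either direction, against 1350 with edgeR. Among 14 other acylation and phosphatase isoforms, 3 fell at WL2 against Pre (median −0.28). *Mogat2*, a monoacylglycerol acyltransferase, fell by 3.70 (SE 0.21, edgeR, adjusted p = 1.25e-05), and already fell by 2.54 at WL1 against Pre (SE 0.19, edgeR, adjusted p = 0.000262). *Mogat1*, its relative, fell by 1.68 at WL1 (SE 0.17, edgeR, adjusted p = 0.000664) and rose from WL1 to WL2 by 0.91 (SE 0.17, edgeR, adjusted p = 0.0221), and its log2 fold change was −0.76 at WL2 against Pre (SE 0.16, edgeR, adjusted p = 0.0155). The *Mogat1* call against Pre at WL2 was lost without WL2 replicate 1 or 2, and that from WL1 to WL2 without WL1 replicate 1 or 2 or WL2 replicate 2 or 3. *Plpp2*, a lipid phosphatase, fell by 0.60 at WL2 against Pre (SE 0.15, edgeR, adjusted p = 0.0367), a call lost without any of 7 of the 9 libraries (all but Pre replicate 3 and WL1 replicate 1, with adjusted p up to 0.111 in edgeR). These 3 genes had low means of 14.3, 7.58 and 21.1 CPM.

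Of 11 tested genes that supply glycerol 3-phosphate or its precursors, 6 fell and 0 rose at WL1 against Pre (median −0.63), and 5 fell and 1 rose at WL2 against Pre (median −0.51). *Slc25a10*, the mitochondrial dicarboxylate carrier, fell by 1.76 at WL2 against Pre (SE 0.11, edgeR, adjusted p = 1.51e-05). *Tpi1*, which interconverts the triose phosphates upstream of *Gpd1*, fell by 1.47 (SE 0.14, edgeR, adjusted p = 0.000129). *Gk*, the glycerol kinase, fell by 1.10 (SE 0.18, edgeR, adjusted p = 0.00401). *Pcx*, which encodes pyruvate carboxylase, fell by 1.03 at WL2 against Pre (SE 0.12, edgeR, adjusted p = 0.000482). At WL1 against Pre it fell by 0.95 (SE 0.12, edgeR, adjusted p = 0.00151). *Mpc2*, of the mitochondrial pyruvate carrier, fell by 0.93 at WL2 against Pre (SE 0.15, edgeR, adjusted p = 0.00345). These *Pcx* and *Mpc2* calls held in each fit without 1 library. *Aqp7*, the glycerol channel of adipocytes, rose by 0.66 (SE 0.17, edgeR, adjusted p = 0.0336), the opposite direction to the list. This call was lost without Pre replicate 2, Pre replicate 3 or any 1 of the WL2 libraries (edgeR, adjusted p up to 0.114).

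Among 4 tested genes of fatty acid activation, 1 fell at WL2 against Pre, *Acsl1*, the main long-chain acyl-CoA synthetase of adipocytes (−0.62, SE 0.14, edgeR, adjusted p = 0.0191), lost without Pre replicate 1, WL2 replicate 2 or WL2 replicate 3 (edgeR, adjusted p up to 0.0968). In the phospholipid branch, which shares phosphatidate and diacylglycerol with triglyceride synthesis, 4 of 10 genes fell and 1 rose. *Pemt*, which methylates phosphatidylethanolamine, fell by 0.89 (SE 0.18, edgeR, adjusted p = 0.0138), *Chpt1*, a choline phosphotransferase, by 0.78 (SE 0.11, edgeR, adjusted p = 0.00143), and *Cds1*, a CDP-diacylglycerol synthase, by 0.74 (SE 0.12, edgeR, adjusted p = 0.00433). *Cept1*, which makes both main phospholipids, rose by 0.39 (SE 0.10, edgeR, adjusted p = 0.0274). The *Cept1* call was lost without Pre replicate 1 or 3, WL1 replicate 2 or any 1 of the WL2 libraries (edgeR, adjusted p up to 0.0859), and that of *Pemt* without WL2 replicate 2 or 3 (up to 0.0623). Of 12 regulators, 3 fell at WL1 and 2 at WL2, each against Pre. At WL2 against WL1, 1 rose and 0 fell. The 1 that rose was *Pparg*, which encodes PPARγ, by 0.54 (SE 0.13, edgeR, adjusted p = 0.0456). The *Pparg* call was lost in 6 of 9 fits without 1 library. *Srebf1*, a regulator of lipid synthesis genes, fell by 0.92 at WL1 (SE 0.12, edgeR, adjusted p = 0.00171) and by 0.88 at WL2 (SE 0.12, edgeR, adjusted p = 0.00111). *Rxra*, partner of PPARγ, fell by 0.61 at WL2 against Pre (SE 0.12, edgeR, adjusted p = 0.00905). Its call at WL1 against Pre was lost in 5 of 9 fits without 1 library. That of *Mlxipl*, which fell by 0.61 at WL1 against Pre (SE 0.16, edgeR, adjusted p = 0.0492), was lost in 7 of 9.

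**Figure D5:**
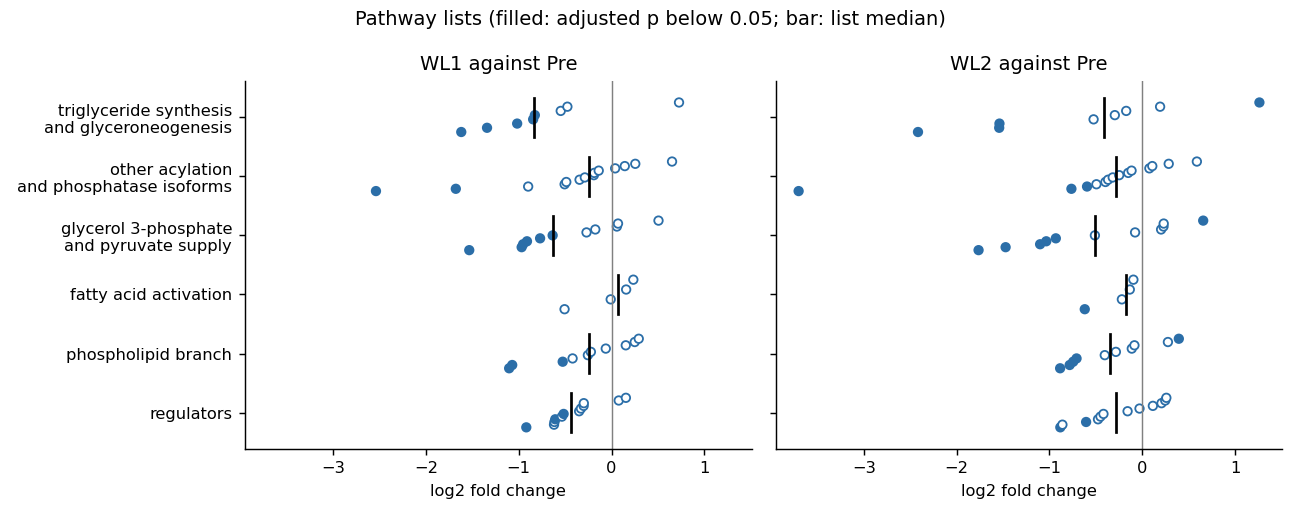
Log2 fold change (horizontal axis) of every tested gene of 6 lists for WL1 (left) and WL2 (right), each against Pre, with the 8 genes of triglyceride synthesis and glyceroneogenesis on top. Filled points have an adjusted p below 0.05 in edgeR and vertical bars are list medians. At WL2 more genes fell than rose in each of the 6 lists, 3 against 1 in the 8 genes, 5 against 1 in the supply list and 1 of 4 genes in fatty acid activation, where 6.66% of all tested genes fell and 3.35% rose.

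Across the 9 libraries, the highest correlation between members was that of *Dgat2* and *Gpd1* (Pearson's r = 0.98 of log2 CPM), followed by *Gpat3* and *Dgat1* (r = 0.98) and *Agpat2* and *Dgat2* (r = 0.94). The other closest partners were *Gpam* with *Gpat3* (r = 0.76), *Lpin1* with *Gpam* (r = 0.71) and *Pck1* with *Lpin1* (r = 0.13). *Dgat2* and *Pck1* were the least alike (r = −0.79). The 5 genes most like the mean of the standardized levels of the 8, of 9936 genes with at least 10 CPM, were *Gm50431* (r = 0.99), *Apmap* (0.98), *A530016L24Rik* (0.98), *Nol3* (0.97) and *Ghitm* (0.97). These are descriptions over 9 libraries that share phases and depth, without a test.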

How the data were processed

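RNA of epididymal adipose tissue was sequenced in 9 libraries, 3 per phase, and phases and replicate numbers were taken from the labels. The authors deposited raw counts per gene and FPKM per gene for 56748 genes. The submitters' processing notes name CASAVA, HISAT, HISAT2 and TopHat2 with GRCm38 and mm10, without role or order, and the counter, strand setting and annotation were not given in these sources. Coordinates equalled those of GENCODE M21 (GRCm38) for 1472 of 52073 genes in both, and for 0 of the 8, so gene positions are those of the deposited table, without a build. The library total implied by the deposited FPKM ranged from 0.995 to 1.12 times the counted total and differed by phase. It was 0.995 to 1.01 times at Pre, 1.07 to 1.11 at WL1 and 1.11 to 1.12 at WL2.

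The count test was that of edgeR 4.0.16 in R 4.3.3 (TMM factors, quasi-likelihood test, 1 model over the 9 libraries) for genes with at least 0.5 CPM in 1 library, with Benjamini-Hochberg adjustment over 18510 genes and a threshold of 0.05. Log2 CPM used a prior count of 4. Ratios of 2 genes were compared by two-sided exact permutation tests. The code was tested on simulated data. Named genes are the 8, the 3 genes of each list with the largest change at WL2 against Pre among those past the threshold (mean of at least 1 CPM), any called against the list median, and the 5 most correlated genes. *Pcx*, *Mpc2*, *Pparg* and *Mlxipl* were named outside this rule, with their results known. The members and lists were chosen with earlier results of these data known. *Gyk*, a symbol listed beside *Gk*, was not in the table, and *Acsl6* (at most 5 counts) was not tested. The alternatives tried were DESeq2 1.42.0, the test without a filter or with one on 3 libraries, other scaling, a replicate block, the compared phases alone, limma 3.58.1 on log2(FPKM + 1) and log2(FPKM + 0.1), and leaving out each library.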

Additional observations from a re-analysis of the deposited data

How the results depend on the processing

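Over 18 alternatives, the 24 log2 fold changes of the 8 genes gave 432 values, of which 396 kept their direction and side of the threshold, 18 lost a call, 18 gained one and 0 changed direction. Of the 10 calls, 9 held in each alternative other than leaving out a library and 6 held in each fit without 1 library. The cause was not tested for the changes below. With library totals in place of TMM factors, the median of all tested genes shifted to 0.12 for WL1 and 0.16 for WL2, each against Pre. In the order WL1 against Pre, WL2 against Pre and WL2 against WL1, edgeR called 1350, 1853 and 681 of all tested genes. DESeq2 called 2344, 2717 and 1935. Without the filter the calls were 1861, 2119 and 1668, and with the filter on 3 libraries 1541, 1959 and 782. Library totals gave 1645, 2330 and 692, and the compared phases alone 992, 1314 and 1053. Among the 8 genes at WL2 against WL1, the number higher (0) became 2 without the filter, 1 with the filter on 3 libraries, 2 with DESeq2, 1 with library totals and 1 with the compared phases alone, and the number lower (1) became 2 without the filter and 2 with DESeq2. Among the other pathway genes, the number higher at WL1 against Pre (0) became 1 without the filter, 2 with DESeq2 and 2 with library totals, that higher at WL2 against Pre (1) became 2 with library totals, and at WL2 against WL1 the number lower (1) became 2 without the filter and 2 with DESeq2, and the number higher (1) became 3 with DESeq2 and 2 with the compared phases alone.

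Leaving out 1 library at a time gave 3 to 6 of the 8 genes lower at WL1 against Pre (3 without Pre replicate 1 or WL1 replicate 3), 0 to 1 higher at WL2 against Pre, and 0 to 2 lower and 0 to 2 higher at WL2 against WL1. For the other pathway genes it gave 0 to 1 higher at WL1 against Pre, 6 to 9 lower at WL1 against Pre, 6 to 11 lower and 0 to 1 higher at WL2 against Pre, and 0 to 2 lower and 0 to 2 higher at WL2 against WL1. The calls over all tested genes moved too in these fits. They were 512 to 1500 at WL1 against Pre, 743 to 1688 at WL2 against Pre and 37 to 1351 at WL2 against WL1. With all 9 libraries they were 1350, 1853 and 681. The log2 ratio of *Gpam* to *Gpat3* at WL1 against Pre (−0.023) ran from −0.17 to 0.24, turning positive without Pre replicate 3 (0.24) or WL1 replicate 2 (0.03). *Lpin1* relative to the markers (0.046 at WL1 against Pre) was −0.012 when *Plin1* and *Cidec* were left out of them. Further marker sets, chosen after seeing the data, turned more signs. Without *Cfd* and *Adrb3*, *Lpin1* was at 0.27 (WL2 against Pre), and *Gpam*, *Lpin1* and *Pck1* were at 0.27, 0.23 and 0.18 (WL2 against WL1). With all 10 markers, *Dgat1* was at 0.13 (WL1 against Pre), *Lpin1* at 0.21 (WL2 against Pre) and *Gpam* at 0.027 (WL2 against WL1).

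Libraries with the same replicate number did not deviate together (correlations of their deviations from −0.28 to 0.11), so the numbers were not used to pair them. With the replicate number as a block, the counts of the 8 genes did not change (5 lower at WL1 against Pre, 3 lower and 1 higher at WL2 against Pre, 1 lower at WL2 against WL1), while over all genes 844, 1399 and 330 were called in place of 1350, 1853 and 681. With 3 libraries per phase, a ratio test could not go below an exact p of 0.1.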
